A study of Mus musculus with 4 samples.

Results

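*Sox4*, *Sox11* and *Sox12* make up the SoxC group of HMG-box transcription factors, and *Dlx1* and *Dlx2* are neighbouring homeobox genes. Their 5 rows were taken by gene symbol from the count table of 24062 genes, and all 5 had enough reads to be tested. The table held RNA-seq of E13.5 mouse retinas in 4 libraries, 2 from wildtype embryos and 2 from *Nrf1* f/f*;Six3-Cre* embryos, which the labels call Nrf1-CKO. The labels give a mixed C57BL/6 and 129 background for both genotypes, and each library was made from the pooled retinas of several embryos. In the mutant, Cre from *Six3* sequences removes exon 4 of *Nrf1*, the gene for nuclear respiratory factor 1, a transcription factor of mitochondrial and other housekeeping genes. That recombination begins in the central retina, so peripheral cells may still carry an intact allele. Nothing in the labels says whether the 2 pools of a genotype were separate dissections, and the p-values measure only the spread between them.

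Retinal ganglion cells (RGCs) are the output neurons of the retina and among the first cells to leave the progenitor pool. SoxC proteins bind DNA through an HMG box of shared sequence, and *Sox4* and *Sox11* are known to act redundantly in RGC formation downstream of or beside the proneural factor *Atoh7*. *Dlx1* and *Dlx2* encode homeodomain proteins known for the differentiation of forebrain interneurons, and in the retina they act in RGC differentiation and survival. The comparison of the genotypes asks how the levels of these regulators differ in a developing retina in which *Nrf1* is deleted.

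The stretches of coding sequence that the members share most closely are shown first, because both families are counted by reads that must tell close copies apart. In the SoxC genes the stretch lies in the HMG box, and 76 of its 90 bases are identical in all 3 genes. Capitals mark the 14 positions that differ, and each line is 5′ to 3′ on the coding strand, from the GRCm38 genome.
*Sox4*, coding bases 181 to 270, chr13:28952752-28952841, minus strand: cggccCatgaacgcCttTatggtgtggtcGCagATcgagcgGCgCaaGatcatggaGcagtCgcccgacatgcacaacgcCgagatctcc
*Sox11*, coding bases 151 to 240, chr12:27342169-27342258, minus strand: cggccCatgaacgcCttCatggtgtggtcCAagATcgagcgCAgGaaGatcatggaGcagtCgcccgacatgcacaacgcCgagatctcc
*Sox12*, coding bases 124 to 213, chr2:152397486-152397575, minus strand: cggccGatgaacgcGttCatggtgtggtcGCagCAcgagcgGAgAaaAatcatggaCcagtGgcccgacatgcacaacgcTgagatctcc
In this stretch *Sox4* and *Sox11* were identical at 93.3% of bases, *Sox4* and *Sox12* at 87.8%, and *Sox11* and *Sox12* at 86.7%.

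The corresponding stretch of the Dlx genes lies in the homeobox and spans an intron in both genes. Of its 90 bases 74 are identical, or 82.2%, and capitals mark the other 16.
*Dlx1*, coding bases 463 to 552, chr2:71531106-71532302, plus strand: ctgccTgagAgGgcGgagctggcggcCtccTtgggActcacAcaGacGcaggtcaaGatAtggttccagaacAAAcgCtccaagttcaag
*Dlx2*, coding bases 544 to 633, chr2:71544886-71545434, minus strand: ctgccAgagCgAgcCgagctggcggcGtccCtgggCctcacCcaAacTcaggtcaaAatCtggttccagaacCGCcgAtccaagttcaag
The longest run of bases shared without a mismatch by any pair of members was the 48-base run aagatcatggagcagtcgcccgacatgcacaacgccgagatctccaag of the *Sox4* and *Sox11* transcripts. It was 33 bases for *Sox4* and *Sox12*, 20 for *Sox11* and *Sox12*, and 15 for *Dlx1* and *Dlx2*. All of these runs lie in coding sequence, which is only 14.3% of the exon length of *Sox11* and 27.5% of that of *Sox4*.

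*Sox4* (ENSMUSG00000076431.4) and *Sox11* (ENSMUSG00000063632.6) are single-exon genes, at chr13:28948919-28953713 and chr12:27334264-27342574 on the minus strand. *Sox12* (ENSMUSG00000051817.8) lies at chr2:152393611-152398063 on the minus strand. *Dlx1* (ENSMUSG00000041911.3), at chr2:71528113-71533981 on the plus strand, and *Dlx2* (ENSMUSG00000023391.8), at chr2:71543408-71546754 on the minus strand, have their 3′ ends facing each other. A noncoding gene on the other strand, *Gm26735*, covers 54.6% of the *Sox4* exon, and the antisense gene *Dlx1as* shares 6.2% of the *Dlx1* exons. Whether the counting used strand is not given in the sources used here, so reads from these overlaps cannot be assigned to a strand.

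The libraries held 74577660 to 85933945 reads on genes, and 15762 genes were tested. Levels are given as CPM, the reads of a gene relative to the library total, after scaling by trimmed mean of M-values (TMM), and a gene was called at a difference of 1.4-fold or more together with an adjusted p no higher than 0.2. Both limits are the study's own. *Nrf1* itself stood at 104 ± 1.17 CPM in wildtype and 102 ± 2.35 CPM in mutant libraries (SD, n = 2 each), with an adjusted p of 0.794 in edgeR's test. The whole-gene count is no check of the genotype, because the allele removes only exon 4. Genes of retinal progenitors were abundant in all libraries, with a summed level of 11346 to 11611 CPM in wildtype and 9302 to 9815 CPM in mutant libraries, and 2 of 13 fell (*Ccnd1*, -0.88, and *Fgf15*, -0.70). Over all tested genes 8.04% were called lower and 12.8% higher, and the count of progenitor markers is near that share.

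Markers of other tissues moved with genotype, where 12.8% of all tested genes were called higher. All 12 lens markers, 10 of 10 macrophage and microglia markers, 6 of 8 pigment epithelium markers, 7 of 9 endothelial markers and 8 of 13 periocular mesenchyme markers rose, the last count being 4 at an adjusted p of at most 0.05, with glmTreat and with limma on the normalized values. Among endothelial markers, *Kdr* fell, but not with glmTreat. The summed level of the lens list went from 169 to 478 CPM in wildtype to 4046 to 9839 CPM in the mutant, and that of the macrophage list from 75.9 to 81.3 CPM to 248 to 297 CPM. Their part in the values of the SoxC and Dlx genes was not tested.

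Of the 5 genes, *Dlx1* fell, and no other member was called in either direction. *Dlx1* stood at 63.4% of its wildtype level, *Dlx2* at 76.7%, *Sox11* at 81.7%, *Sox4* at 85.6% and *Sox12* at 105%. So 1 of 5 members was called lower, where 8.04% of all tested genes were, and 0 of 5 were called higher, where 12.8% of genes were. In 4 of 5 both mutant libraries lay below both wildtype libraries, which was also so for 31.6% of all tested genes. Without the 1.4-fold limit, 4 of 5 members had an adjusted p of at most 0.2 and a lower mutant level, against 19.5% of genes. The count was 3 of 5 with upper-quartile scaling, without wildtype replicate 2 and without Nrf1-CKO replicate 2, where the adjusted p of *Sox4* by edgeR was 0.243, 0.725 and 0.301. With glmTreat, which itself tests against a 1.4-fold difference, it was 1 of 5. The median log2 fold change was -0.29 over the members and 7e-04 over all tested genes.

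**Figure D1:**
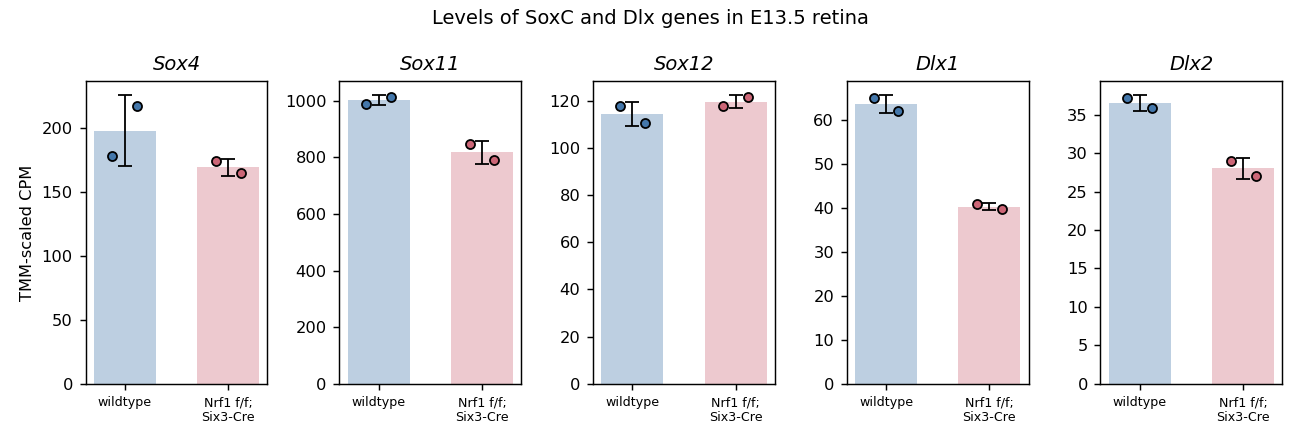
TMM-scaled CPM of the 5 genes in each library, with wildtype and *Nrf1* f/f*;Six3-Cre* side by side; points are libraries and bars their means, and each panel has its own axis from 0. The wildtype and mutant points are apart in *Sox11*, *Dlx1* and *Dlx2*, with the widest relative gap in *Dlx1*. In *Sox4* they are barely apart, at 179 against 174 CPM where nearest, and in *Sox12* they overlap.

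*Sox11*, known as a driver of neuronal differentiation genes, was the most abundant member by reads. Its reads numbered 86686 and 75215 in wildtype and 70345 and 65318 in the mutant, or 989.8 and 1014 CPM against 847 and 789 CPM. The genotypes did not overlap, and the spread within each was smaller than the gap between them. The means were 1002 ± 17.1 and 818 ± 40.5 CPM (SD, n = 2 each), a log2 fold change of -0.29 ± 0.079 (SE). The adjusted p was 0.0291 in edgeR's quasi-likelihood test with Benjamini-Hochberg adjustment, but the gene was not called, because the difference was under 1.4-fold. Its 95% interval, from -0.47 to -0.11, ended short of a 1.4-fold difference, which is 0.485 on the log2 scale.

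*Sox4*, the partner of *Sox11* in RGC formation, had 15633 and 16136 wildtype reads and 14474 and 13638 mutant reads. In CPM these were 179 and 218 against 174 and 165. The first wildtype library lay close to the mutant libraries and the second stood above all others, so the spread within wildtype was larger than the gap from its lower library to the mutants. The means were 198 ± 27.6 and 169.5 ± 6.64 CPM (SD, n = 2 each). The log2 fold change was -0.22 ± 0.10 (SE), with a 95% interval from -0.45 to 0.0069 and an adjusted p of 0.156 by edgeR, and *Sox4* was not called. Without wildtype replicate 2 the log2 fold change was -0.071, and without wildtype replicate 1 it was -0.36.

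*Sox12*, a weaker transactivator than its relatives, stood at 114 ± 5.11 CPM in wildtype and 119.5 ± 2.69 CPM in the mutant (SD, n = 2 each). It had 10319 and 8203 wildtype reads and 9771 and 10046 mutant reads, or 118 and 111 CPM against 118 and 121 CPM. One mutant library lay just below the higher wildtype library and the other above it, so the genotypes overlapped. Its log2 fold change of 0.065 ± 0.077 (SE) was not called, with an adjusted p of 0.603 by edgeR. The 95% interval, from -0.11 to 0.24, lay within 1.4-fold in both directions.

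The wildtype libraries held 5687 and 4604 reads of *Dlx1*, and the mutant ones 3392 and 3281. These were 64.9 and 62.1 CPM against 40.8 and 39.7 CPM. Replicates lay close together and the genotypes were far apart. The mean went from 63.5 ± 2.03 to 40.2 ± 0.83 CPM (SD, n = 2 each), a log2 fold change of -0.66 ± 0.076 (SE) with a 95% interval from -0.83 to -0.49. The adjusted p was 0.000462 in edgeR's test, and 7.42% of tested genes had a lower log2 fold change. *Dlx1* was called lower under each of the 15 alternative settings, with log2 fold changes from -0.69 to -0.58.

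*Dlx2*, the partner of *Dlx1*, had 3261 and 2659 wildtype reads and 2406 and 2241 mutant reads. In CPM these were 37.2 and 35.8 against 29.0 and 27.1. Both mutant libraries were below both wildtype libraries, as in *Dlx1*, but the gap was narrower. The mean went from 36.5 ± 0.98 to 28.0 ± 1.33 CPM (SD, n = 2 each), a log2 fold change of -0.38 ± 0.089 (SE). The adjusted p was 0.0144 by edgeR, and *Dlx2* was not called because the difference was under 1.4-fold. Its 95% interval ran from -0.58 to -0.18 and included a 1.4-fold difference, unlike those of the SoxC genes.

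Per kb of exon, the SoxC genes were more abundant than the Dlx genes in every library. In wildtype, *Sox11* stood at 121 ± 2.06 CPM per kb, which ranked it 210 of 14958 genes with a known length. *Sox4* followed at 41.3 ± 5.76 CPM per kb (rank 899), *Sox12* at 25.6 ± 1.15 (rank 1770), *Dlx2* at 12.8 ± 0.343 (rank 3937) and *Dlx1* at 11.8 ± 0.375 (rank 4273; SD, n = 2 throughout). The SoxC genes did not overlap with each other or with the Dlx genes in any of these levels. In the mutant the order of the 5 levels was the same, with *Sox11* at 98.4 ± 4.87 CPM per kb (rank 269), *Sox4* at 35.4 ± 1.38 (rank 1070), *Sox12* at 26.8 ± 0.605 (rank 1584), *Dlx2* at 9.82 ± 0.464 (rank 4872) and *Dlx1* at 7.46 ± 0.154 (rank 6003). *Dlx1* and *Dlx2* are close neighbours in wildtype, and their order there depends on the length used. With the longest transcript in place of all exons, *Dlx1* was the higher in wildtype, at 15.4 against 14.8 CPM per kb, and the lower in the mutant, at 9.79 against 11.3.

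As shares of the summed SoxC level per kb, *Sox11* made up 65.2% and 63.5% in wildtype and 61.9% and 60.6% in the mutant. *Sox12* made up 14.5% and 12.9% against 16.0% and 17.4%, and *Sox4* 20.4% and 23.6% against 22.1% and 21.9%. The *Sox11* share was thus lower and the *Sox12* share higher in both mutant libraries, while the *Sox4* share overlapped between genotypes. The summed level was 183 and 192 CPM per kb in wildtype and 165 and 157 in the mutant. *Dlx1* made up 48.0% and 47.8% of the *Dlx1* and *Dlx2* sum in wildtype and 42.7% and 43.7% in the mutant, of a sum that was 25.1 and 24.1 against 17.7 and 16.8 CPM per kb.

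**Figure D2:**
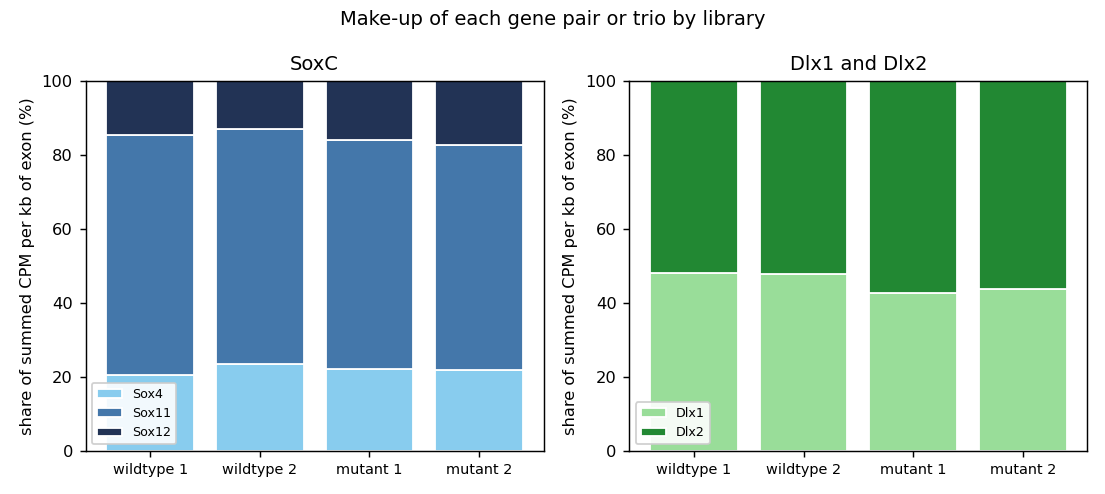
Share, in percent, of each gene in the summed CPM per kb of exon of its family in each library, for the 3 SoxC genes on the left and for *Dlx1* and *Dlx2* on the right. The *Dlx1* part is 48.0% and 47.8% in wildtype and 42.7% and 43.7% in the mutant, and the *Sox12* part was widest in the mutant libraries.

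Ratios within a library do not depend on the scaling between libraries. The log2 ratio of *Dlx1* to *Dlx2* reads was 0.80 and 0.79 in wildtype and 0.50 and 0.55 in the mutant, a difference of -0.27. An exact two-sided permutation test gave p = 0.33, adjusted 0.667 over the 2 pairs tested, and 0.33 is the smallest p that 2 against 2 libraries allow. The log2 ratio of *Sox4* to *Sox11* was -2.47 and -2.22 in wildtype and -2.28 and -2.26 in the mutant, a difference of 0.076 (exact permutation p = 1), which became -0.05 without wildtype replicate 1. The mutant values of this ratio lay inside the wildtype range. A further 4 ratios were picked after the values were seen and are given without a test. The plain ratio of *Sox11* to *Sox12* reads went from 8.40 and 9.17 in wildtype to 7.20 and 6.50 in the mutant, and that of *Sox4* to *Sox12* from 1.51 and 1.97 to 1.48 and 1.36. The ratio of *Sox11* to *Pou4f2*, an RGC factor, went from 5.84 and 5.87 to 8.91 and 9.86, and that of *Dlx1* to *Pou4f2* from 0.383 and 0.359 to 0.43 and 0.495.

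The other transcription factors of RGC differentiation gave the members a scale. Of 16 such genes, 15 fell and 0 rose, with a median log2 fold change of -1.41, against 8.04% and 12.8% of all genes. Many of the 16 are genes that the study itself listed as lower in these libraries, so the count is not independent evidence of direction. *Pou4f2*, a POU-domain factor of RGC differentiation, stood at 169 and 173 CPM in wildtype and 95.1 and 80.0 CPM in the mutant, a log2 fold change of -0.97. *Isl1*, its LIM-homeodomain partner, went from 146 and 160 CPM to 68.1 and 50.6 CPM (-1.37), and *Pou4f1* from 30.6 and 44.8 CPM to 11.6 and 9.48 CPM (-1.84). With glmTreat 13 were called, *Onecut1* and *Ebf2* being lost. The smallest called fall of the list was in *Onecut1*, at -0.65, and the largest in *Pou4f3*, at -3.48, a gene with at most 2.48 CPM in any library. *Atoh7*, which sets progenitors on the RGC path, was not called at -0.29, with 93.7 and 130 CPM in wildtype and 86.5 and 96.1 CPM in the mutant. The *Atoh7* value rests on the wildtype libraries: it was -0.033 without wildtype replicate 2, and -0.51 and called without wildtype replicate 1. The log2 fold change of *Dlx1* was thus close to that of *Onecut1*. Those of *Sox4*, *Sox11* and *Dlx2* lay nearer to 0 than that of any of the 15 genes that fell. The calling rule fixes that order: these members had an adjusted p of at most 0.2, and only the 1.4-fold limit kept them uncalled. In bulk retina, fewer cells of a type and less RNA per cell cannot be told apart.

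**Figure D3:**
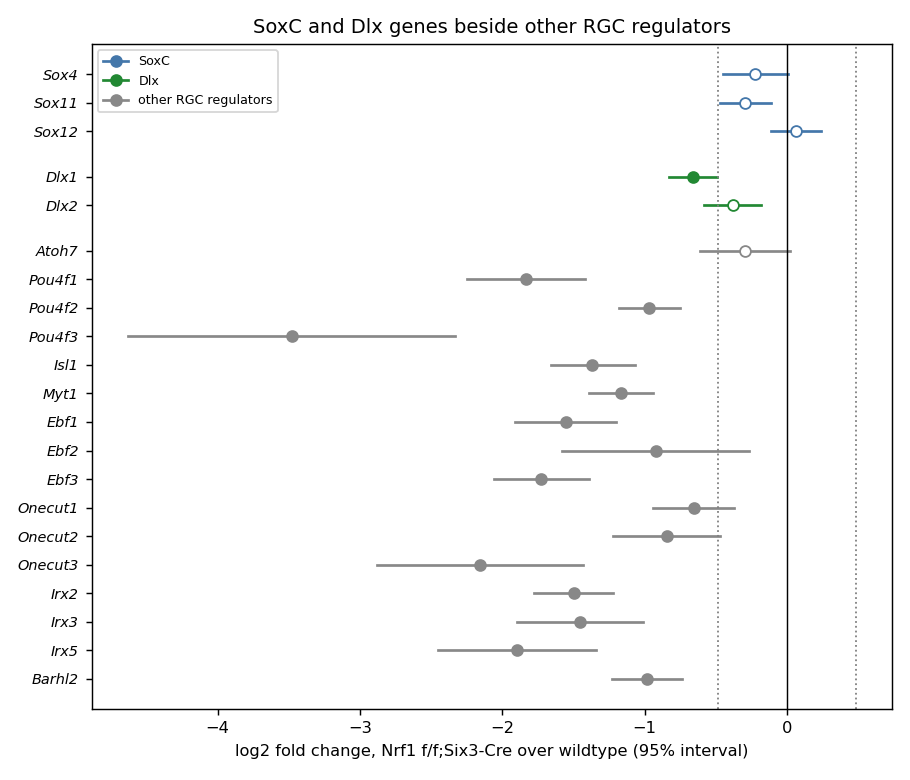
Log2 fold change of mutant over wildtype with its 95% interval for the 5 members and for 16 other transcription factors of RGC differentiation; filled points were called and dotted lines mark 1.4-fold. The SoxC points and *Dlx2* lie between the dotted lines, *Dlx1* lies at the edge of the RGC factors, and 15 of the 16 RGC factors are filled and left of 0.

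The remaining Sox genes are described by subgroup. Of 16, 15 were tested, 2 fell, 6 rose and 7 were not called, with a median log2 fold change of 0.065, where 8.04% of all tested genes were called lower and 12.8% higher. The 2 that fell are thus close to that share. SoxF genes, known from endothelium, rose in 3 of 3: *Sox7* by 1.44, *Sox17* by 1.01 and *Sox18* by 1.52 on the log2 scale. *Sox17*, with an adjusted p of 0.0899 by edgeR, was not called at an adjusted p of at most 0.05, with glmTreat or limma, without wildtype replicate 1 (0.68) or without Nrf1-CKO replicate 2 (0.95). Most endothelial markers rose as well (7 of 9), and the part of those cells was not tested. *Sox8* (-0.98) and *Sox9* (-0.55), SoxE genes of progenitors and glia, fell, and *Sox10*, a SoxE gene of neural crest and its glia, rose by 1.99 from a level of at most 0.274 CPM in wildtype, and was not called with limma on the normalized values (0.39). *Sox9* was not called without wildtype replicate 2 (-0.41) or without Nrf1-CKO replicate 2 (-0.46). *Sox1* (1.58), a SoxB1 gene of neural progenitors and lens fibres, and *Sox6* (0.87), a SoxD gene, also rose, and all 12 lens markers rose beside *Sox1*. Of SoxC 0 of 3 were called, and by level per kb in wildtype *Sox11*, *Sox4* and *Sox12* took places 1, 3 and 4 among the Sox genes. Place 2 went to *Sox2*, the SoxB1 factor of retinal progenitors, which stood at 107 and 124 CPM per kb in wildtype and 106 and 107 in the mutant (log2 fold change -0.12, not called). The level of *Sox11* per kb lay above the mean of *Sox2* in wildtype, within its spread, and below it in both mutant libraries.

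**Figure D4:**
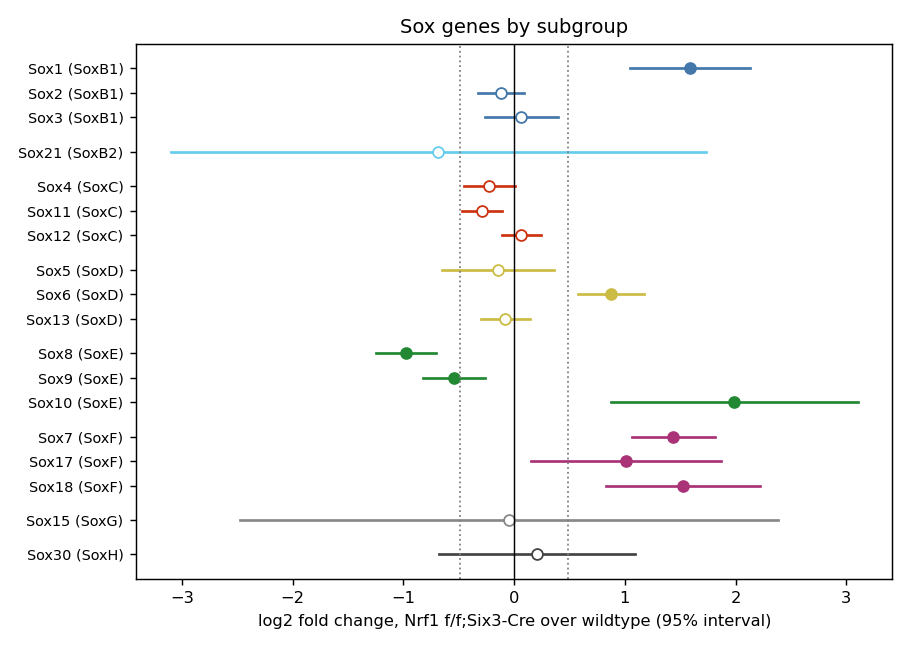
Log2 fold change of mutant over wildtype with its 95% interval for 18 tested Sox genes grouped by subgroup; filled points were called and dotted lines mark 1.4-fold. The 3 SoxC points are open and have some of the narrowest intervals, the 3 SoxF points are filled and to the right, and the SoxE points lie on both sides.

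Of the 6 other Dlx genes 2 had enough reads to be tested, and neither was called. *Dlx3* had 193 and 183 reads in wildtype and 177 and 161 in the mutant, a log2 fold change of -0.20 with both mutant libraries below both wildtype libraries in CPM. *Dlx1as*, the antisense transcript of *Dlx1*, had 41 and 31 reads in wildtype and 17 and 44 in the mutant (-0.27), far fewer than the 3281 to 5687 reads on *Dlx1*. *Dlx5* and *Dlx6*, which *Dlx1* and *Dlx2* activate in the forebrain, had at most 8 and 10 reads in any library, and *Dlx4* at most 1. *Dlx6os1*, the noncoding gene beside *Dlx6*, had 16 and 4 reads in wildtype and 0 in both mutant libraries. Of 7 markers of neural crest and branchial sites where Dlx genes are active, 3 were tested and 4, *Dlx5* and *Dlx6* among them, were too low. *Msx1* (1.14) and *Msx2* (1.97) rose and *Dlx3*, which the list shares, was not called, where 8.04% of all tested genes were called lower and 12.8% higher. The summed level of the list was 7.71 to 8.37 CPM in wildtype and 14.9 to 18.7 CPM in the mutant. *Msx1* went from 4.89 and 4.11 CPM to 8.19 and 11.7 CPM, and *Msx2* from 1.23 and 1.04 CPM to 4.07 and 4.86 CPM. The rise of the sum came almost wholly from these genes, and its tissue of origin was not tested.

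Genes that the literature links to SoxC as targets were mostly lower. Of 13, 8 fell, 1 rose and 4 were not called, against 8.04% of all tested genes called lower and 12.8% higher, and the median log2 fold change was -0.72. The list shares *Pou4f1*, *Pou4f2* and *Isl1* with the RGC factors, and *Tubb3* and *Dcx* are also among genes the study listed on these samples, so the count is not independent evidence. *Tubb3*, a neuronal tubulin, stood at 1331 and 1531 CPM in wildtype and 642 and 552 CPM in the mutant (-1.26). *Dcx*, a microtubule-binding protein of young neurons, went from 151 and 172 CPM to 70.1 and 37.7 CPM (-1.58). *Map2*, a dendritic microtubule protein, fell by 1.06 on the log2 scale, and *Nrcam*, an adhesion molecule of growing axons, fell by 0.62. *Hes5*, a Notch effector of progenitors, went from 190 and 262 CPM to 141 and 133 CPM (-0.72), and without wildtype replicate 2 its log2 fold change was -0.47 and it was not called. *Prox1*, a homeobox gene of horizontal cells and lens, rose from 32.7 and 37.3 CPM to 68.5 and 47.3 CPM (0.73), and without Nrf1-CKO replicate 1 its log2 fold change was 0.44 and it was not called. *Tead2* (0.036), *Mex3b* (-0.16), *Plxna1* (-0.027) and *Neurod1* (-0.060) were not called.

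Of 12 genes linked to *Dlx1* and *Dlx2* as targets, 8 were tested, 2 fell, 1 rose and 5 were not called, against 8.04% of all tested genes called lower and 12.8% higher. The 1 that rose is at that share, and the median log2 fold change was -0.15. *Pou4f2*, given above, fell. *Crx*, a photoreceptor gene, stood at 60.2 and 58.0 CPM in wildtype and 43.6 and 40.2 CPM in the mutant, and its fall of -0.50 was just past 1.4-fold. It was not called with upper-quartile scaling, with glmTreat, with limma on the normalized values, without wildtype replicate 1 (-0.47) or without Nrf1-CKO replicate 2 (-0.44). Of 7 photoreceptor precursor markers, 3 were called lower (*Crx*, *Neurod4* and *Rxrg*) and 0 higher, where 8.04% and 12.8% of all tested genes were. *Nrp2*, a semaphorin receptor, rose from 13.8 and 12.5 CPM to 26.5 and 31.0 CPM (1.12). *Ntrk2*, the receptor of brain-derived neurotrophic factor in RGCs, was at 77.8 and 77.0 CPM in wildtype and 82.3 and 85.3 CPM in the mutant (0.12, not called). Of the genes of GABA synthesis and transport, *Gad2* was not called at -0.23, *Slc32a1* stayed under 1 CPM and *Gad1* was too low to test. *Olig2* (-0.075) and *Otx2* (-0.033) were not called. Whether each link is activating or repressing was not taken into account in these counts.

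**Figure D5:**
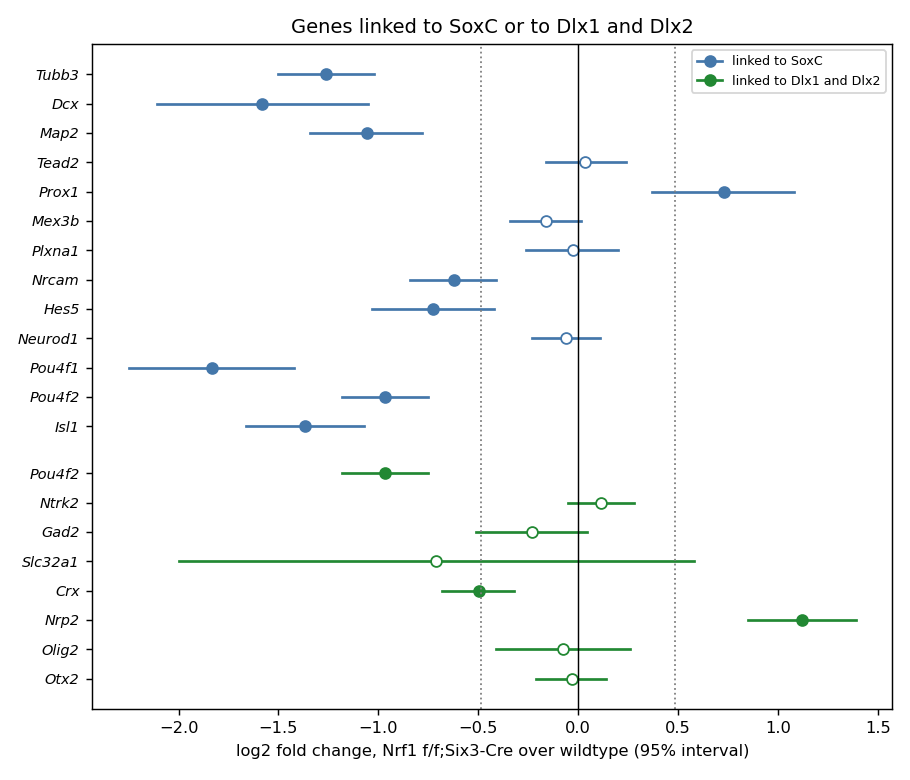
Log2 fold change of mutant over wildtype with its 95% interval for 13 genes linked to SoxC and for the 8 tested genes linked to *Dlx1* and *Dlx2*; filled points were called and dotted lines mark 1.4-fold, and *Pou4f2* stands in both lists. The SoxC-linked points lie mostly to the left, from -1.84 to 0.73, and the Dlx-linked points lie on both sides of 0, from -0.97 to 1.12.

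Promoters of the members were read because the deleted factor binds a known palindrome. The windows ran from 250 bases before to 50 after the start site (RefSeq, GRCm38.p6; 32851 promoters). The *Dlx1* window, chr2:71529195-71529494, lies inside the gene as annotated above, which begins at chr2:71528113. Sequence before that earlier start was not read. The 6-letter words TGCGCA and GCATGC, the latter the centre of that palindrome, read the same on either strand. They were chosen after the full palindrome had been searched. The full palindrome was found in 0.971% of promoters, and with 1 base left free in 4.6%, and in none of the 5 members in either form. TGCGCA was found in 7.76% of promoters and, among the members, only in *Sox11*, at -204, and GCATGC in 7.93% of promoters and in none of the 5. A word that is missing says only that these letters are not in this window. The shorter run GCGCA, part of TGCGCA, also occurs in the *Sox12* window and, on the opposite strand, in the *Dlx1* window. Its share among all promoters was not counted. CCAAT, on either strand and overlapping neither of those words, occurred in 37.4% of promoters and in 4 of the 5 members, with 4 matches in *Sox4*, 1 each in *Sox11*, *Sox12* and *Dlx2*, and none in *Dlx1*. The GC content of the windows was 52.0% for *Sox4*, 58.7% for *Sox11*, 76.7% for *Sox12*, 69.3% for *Dlx1* and 66.3% for *Dlx2*, with a median of 52.7% over all promoters. The 250 bases before the start are shown for the most abundant SoxC gene and for one Dlx gene, with all matches in capitals as they read on the gene's strand. The CCAAT match starts at -60 in *Sox11* and at -74 in *Dlx2*.
*Sox11*, chr12:27342719-27342968, minus strand: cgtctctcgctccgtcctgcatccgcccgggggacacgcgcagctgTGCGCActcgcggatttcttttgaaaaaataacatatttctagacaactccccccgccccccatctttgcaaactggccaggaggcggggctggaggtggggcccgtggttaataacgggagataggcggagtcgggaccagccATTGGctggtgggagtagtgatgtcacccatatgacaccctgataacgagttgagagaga
*Dlx2*, chr2:71546755-71547004, minus strand: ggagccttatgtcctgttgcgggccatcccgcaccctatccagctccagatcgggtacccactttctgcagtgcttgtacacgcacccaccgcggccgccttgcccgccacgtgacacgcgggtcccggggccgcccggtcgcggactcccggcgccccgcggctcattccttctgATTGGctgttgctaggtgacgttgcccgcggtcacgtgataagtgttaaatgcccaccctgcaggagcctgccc

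Genes with the most similar profile over the 4 libraries were found by the root mean square difference of centred log2 CPM, among 11325 other genes with a mean of at least 5 CPM. For *Sox11* these were *Tyk2* (0.0032), *Usp10* (0.0059) and *Mmd* (0.0061), and for *Sox12* *Alg10b* (0.0052), *Pacsin1* (0.0057) and *Utp20* (0.0064). For *Dlx1* they were *Chrna4* (0.0168), a nicotinic receptor subunit, *Gstm5* (0.0193) and *1110058L19Rik* (0.0213). These distances are larger than those for *Sox11* and *Sox12*. Only 7.42% of tested genes had a log2 fold change below that of *Dlx1*, so the distances do not mark its profile as unusual. For *Dlx2* they were *Shprh* (0.0095), *Rtn4* (0.0126) and *Jam3* (0.0144), and for *Sox4* *Mapk12* (0.0119), *BC017643* (0.0126) and *Nudt14* (0.0177). With 4 libraries many genes share a profile, and no member was among the nearest of another.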

How the data were processed

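RNA-seq of E13.5 retina was analysed in 2 wildtype and 2 Nrf1-CKO libraries. The authors aligned reads to mm10 with TopHat2 2.7.2 (submitters' processing notes), counted them per gene with HTSeq, and deposited raw counts. The annotation release is not given in the sources used here. The authors also deposited normalized values on a log2 scale, whose method is not given in the sources used here; they served only as an alternative. Column names in both tables sit 1 field off their values, and columns were assigned by the order of those names. HTSeq summary entries, 74.0% to 75.0% of each library, were left out. Entries for alignments that were not unique made up 54.61% to 58.05% of each library, and those on no gene 16.67% to 19.75%.

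Genes were filtered with filterByExpr (minimum count 10), scaled by TMM (factors 0.992 to 1.02) and compared in R 4.3.3 by edgeR 4.0.16 (quasi-likelihood test), with Benjamini-Hochberg adjustment over 15762 genes. The biological coefficient of variation was 12%. Genes were called at 1.4-fold or more and an adjusted p of at most 0.2. Depth was 74577660 to 85933945 reads; SEs and intervals cover counting error and the spread of 2 libraries, and PCR copies are not independent molecules. Levels per kb divide CPM by the union of exons of GENCODE annotation of GRCm38. Coding windows came from the same annotation and promoters from RefSeq (GRCm38.p6); all 5 members matched.

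The members and gene lists were chosen with earlier results of these data known. Named were the members, genes of the lists (the lowest, the highest and further ones in list order), *Nrf1*, and the 3 genes with the profile nearest to each member. Alternatives were DESeq2 1.42.0, limma 3.58.1 on the normalized values, other scalings and filters, edgeR's exact test and glmTreat, a stricter threshold, a replicate block, transcript length, and leaving out each library; leaving out a library in the log ratios was added after seeing the data.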

Additional observations from a re-analysis of the deposited data

How the results depend on the processing

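Each of the 5 members kept its direction and its side of the call in all 15 alternatives. Log2 fold changes ranged from -0.36 to -0.071 for *Sox4*, -0.34 to -0.24 for *Sox11*, 0.024 to 0.12 for *Sox12*, -0.69 to -0.58 for *Dlx1* and -0.43 to -0.32 for *Dlx2*; the adjusted p of *Dlx1* was at most 0.0702 (edgeR's glmTreat). Replicate numbers did not pair the libraries (correlation of deviations between genotypes -0.003). With a replicate block *Dlx1* stood at -0.66, *Dlx2* at -0.38, *Sox11* at -0.29, *Sox4* at -0.22 and *Sox12* at 0.066, and 1256 genes were called lower and 1970 higher against 1268 and 2024 without it. The counts of called genes were 743 lower and 1188 higher with glmTreat and 723 and 945 with limma on the deposited normalized values; leaving out 1 library gave 1071 to 1402 lower and 1703 to 1856 higher. Among the other Sox genes, 1 in place of 2 was called lower with glmTreat and with limma, and 1 to 2 with a library left out (1 without wildtype replicate 2 or Nrf1-CKO replicate 2), *Sox9* being lost. Among the other Dlx genes, 1 in place of 0 was called lower with no filter on low counts, and 0 to 1 with a library left out, *Dlx6os1* being the gene. Genes linked to SoxC called higher came to 0 to 1 with a library left out (0 without Nrf1-CKO replicate 1, *Prox1*), and those called lower to 7 in place of 8 without wildtype replicate 2 (*Hes5*) and with glmTreat (*Nrcam*). The other Sox genes called higher came to 4 to 7 in place of 6, and the RGC factors called lower to 13 to 16 in place of 15. Of genes linked to *Dlx1* and *Dlx2*, 1 in place of 2 was called lower with upper-quartile scaling, glmTreat and limma, and 1 to 2 with a library left out, *Crx* being lost. With the longest transcript as length, *Dlx1* stood at 15.4 and 9.79 CPM per kb and *Dlx2* at 14.8 and 11.3 in wildtype and mutant. The *Sox4* to *Sox11* log2 ratio difference of 0.076 reversed to -0.05 without wildtype replicate 1 and ranged from -0.05 to 0.20 with a library left out. The cause was not tested for any of these. With 2 libraries per genotype the spread is poorly known, most visibly for *Sox4*, whose wildtype values lie apart; the overlap of its exon with an opposite-strand gene is a further limit.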
